A study of Arabidopsis thaliana with 6 samples.

Results

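The transcriptomes of Arabidopsis thaliana leaves under drought imposed by polyethylene glycol (PEG) and under high salt (NaCl) were compared. The comparison was selected by treatment label and covers 4 of the 6 libraries of the series: 1 library of the lsm1a lsm1b double mutant and 1 of the Col-0 accession under each plate stress. Plants were 2 weeks old, had grown under long days on plates of GM medium, and were moved for 10 h to plates with 55% PEG or with 150 mM NaCl. The lsm1a lsm1b plants carry mutations in both genes for LSM1, the first subunit of the cytoplasmic LSM1-7 ring, which binds deadenylated mRNAs and promotes decapping. Col-0 is the wild type. Unstressed plants were not analysed here, so each difference is between the stresses and not from a resting level, and the labels do not say whether plants were pooled or whether both stresses were run at the same time. The files list 18734 genes for PEG and 19468 for NaCl. Of the 19757 genes listed in either, 18445 are listed in both and were compared.

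PEG is a polymer that lowers the water potential of the medium without entering cells. NaCl also lowers the water potential, and in addition brings sodium and chloride ions that plants take up, exclude from the cytosol or store in the vacuole. Both stresses are known to raise abscisic acid (ABA), the hormone that closes stomata and induces protective proteins through a chain of receptors, protein phosphatases, kinases and bZIP transcription factors.

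Total counts were 18043773 in lsm1a lsm1b and 20527483 in Col-0 under PEG, against 22639128 in lsm1a lsm1b and 20183174 in Col-0 under NaCl. Levels are given as RPKM, the counts of a gene scaled to its length and to the total counts of its library. The mutated genes were looked at first. LSM1A (AT1G19120, TAIR10 chromosome 1, 6608115 to 6609369, plus strand) had 26 counts in lsm1a lsm1b and 246 in Col-0 under PEG, against 12 in lsm1a lsm1b and 273 in Col-0 under NaCl. LSM1B (AT3G14080, TAIR10 chromosome 3, 4667365 to 4669194, plus strand) had 98 counts in lsm1a lsm1b and 207 in Col-0 under PEG, against 439 in lsm1a lsm1b and 195 in Col-0 under NaCl. In the NaCl library labelled lsm1a lsm1b, LSM1A was thus below Col-0 while LSM1B was above it. The reason for the LSM1B level was not tested, and each direction drawn from that library is for the library as labelled. Storage protein and oil body genes of seeds also stood apart in NaCl: the 12 seed markers listed in both stresses summed to 926 RPKM in lsm1a lsm1b and 588 in Col-0 under PEG, against 603 in lsm1a lsm1b and 41.4 in Col-0 under NaCl. Of the 27 matched root markers 21 were listed in both stresses although the labels say leaves, among them PYK10, a beta-glucosidase of ER bodies, and CASP1, which builds the Casparian strip. These root markers summed to 1276 RPKM in lsm1a lsm1b and 1514 in Col-0 under PEG, against 1222 in lsm1a lsm1b and 1417 in Col-0 under NaCl.

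Across the 4 libraries, 1840 of 18385 genes tested (10.0%) were higher and 2648 (14.4%) were lower in PEG than in NaCl (edgeR quasi-likelihood test with genotype as a block, Benjamini-Hochberg adjusted p under 0.05). Among the called genes, differences of 4-fold or more were seen in 121 higher and 423 lower ones. The genotype pairs serve as replicates in this test, so the p-values measure the spread between the PEG to NaCl ratios of the 2 genotypes, with 1 residual degree of freedom per gene. edgeR moderates this spread over all genes tested, with a median of 5.66 prior degrees of freedom per gene. Each SE is taken from that moderated test and is not the spread of 1 gene alone. The calls rest on that pairing and on all 4 libraries. Without the genotype block edgeR called 0 genes higher and 14 lower, with 2047 higher and 2697 lower at an unadjusted p under 0.05. When any 1 of the 4 libraries was left out of an edgeR fit that also held the cold libraries, 0 genes were called in either direction, with 914 to 1553 higher and 1493 to 2046 lower at an unadjusted p under 0.05. That fit with all 6 libraries called 543 higher and 903 lower. Stress cannot be told apart from plate, harvest or sequencing run, and in bulk leaf RNA fewer cells of a type cannot be told apart from less RNA per cell. Where named genes are said below not to overlap between the stresses, they were picked among the called genes, many for large differences. The lack of overlap is a description and no further support, and its share over all genes tested is not given.

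The stress difference was set side by side in the 2 genotypes. Of the 4488 genes called, 4486 differed in the same direction in both genotypes and 1754 by at least 2-fold in both. The test uses the genotypes as replicates and so favours genes whose ratios agree. The 4486 are therefore no separate evidence of agreement. A rule of size that uses no test was applied to each genotype: among 15059 genes with at least 5 CPM, counts scaled to the library size but not to gene length, in the higher library of each genotype, 439 (2.92%) reached 2-fold in the higher direction and 1105 (7.34%) in the lower direction in both. In 4 genes (0.0266%) the genotypes differed by at least 2-fold in opposite directions. In the Col-0 libraries alone 1328 reached 2-fold higher and 2078 reached it lower, and in the libraries labelled lsm1a lsm1b 619 were higher and 1558 lower. Across the 15059 genes, called or not, 12096 (80.3%) had log2 ratios of the same sign in the 2 genotypes. These genes are not independent replicates, and their log2 ratios in the 2 genotypes correlated with r = 0.807.

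**Figure D1:**
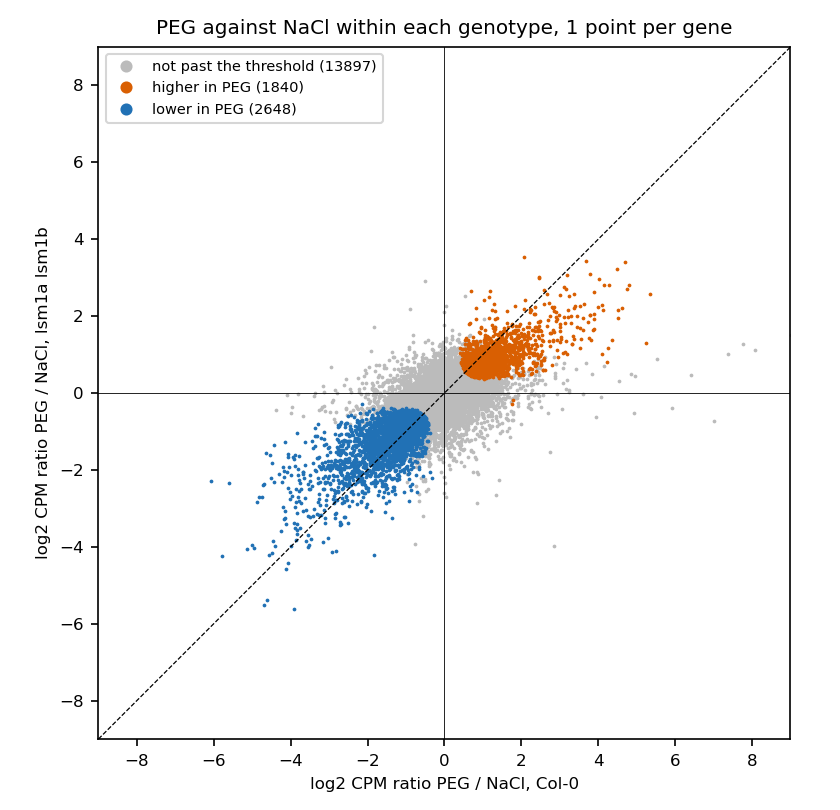
Each point is 1 of 18385 genes, with the log2 ratio of CPM in PEG over NaCl in Col-0 on the x axis and in lsm1a lsm1b on the y axis; orange points were higher and blue points lower in PEG by the edgeR test, grey points did not pass, and the dashed line marks equal ratios. The 1840 higher genes lie in the upper right and the 2648 lower genes in the lower left, apart from 2 of the 4488. The test itself favours genes whose ratios agree.

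Several genes of ABA synthesis, and many of the signalling steps between receptor and target genes, were higher in PEG. Of the 14 synthesis and breakdown genes tested, 4 were higher and 3 lower, with a median log2 fold change of 0.22 beside -0.02 over all genes tested. The shares of 28.6% higher and 21.4% lower stand beside 10.0% and 14.4% over all genes tested. NCED3 (AT3G14440, TAIR10 chromosome 3, 4831288 to 4833599, minus strand), the rate-limiting carotenoid dioxygenase of stress-induced ABA synthesis, had 173 RPKM in lsm1a lsm1b and 276 in Col-0 under PEG, against 61.0 in lsm1a lsm1b and 78.1 in Col-0 under NaCl (log2 fold change 1.67 ± 0.20 SE, adjusted p = 0.00411). Both PEG libraries were above both NaCl libraries. The other synthesis genes AAO3, ABA1 and ABA3 were higher as well, with log2 fold changes of 0.97, 0.91 and 0.77. On the opposite side stood CYP707A2, an ABA 8′-hydroxylase that breaks ABA down (1.74 RPKM in lsm1a lsm1b and 0.814 in Col-0 under PEG, against 4.52 in lsm1a lsm1b and 2.66 in Col-0 under NaCl; log2 fold change -1.52 ± 0.29 SE, adjusted p = 0.0139), and BGLU33 and BGLU18, which release ABA from its glucose ester, at log2 fold changes of -1.19 and -0.76.

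In the core signalling list, 15 of 31 genes tested were higher, 0 were lower and 16 did not pass (median 0.71). The 15 higher genes belong to the steps below the receptors, and none of the 8 PYR/PYL receptors tested passed in either direction. Among the clade A protein phosphatases, which hold the kinases inactive until ABA binds its receptor, AHG1 (AT5G51760) had 6.86 RPKM in lsm1a lsm1b and 12.3 in Col-0 under PEG, against 2.05 in lsm1a lsm1b and 0.811 in Col-0 under NaCl (log2 fold change 2.74 ± 0.52 SE, adjusted p = 0.0142). HAI1 (AT5G59220) was at 151 RPKM in lsm1a lsm1b and 248 in Col-0 under PEG, against 50.2 in lsm1a lsm1b and 99.4 in Col-0 under NaCl (log2 fold change 1.46 ± 0.18 SE, adjusted p = 0.00411). HAB1 was at 81.6 RPKM in lsm1a lsm1b and 158 in Col-0 under PEG, against 40.2 in lsm1a lsm1b and 42.3 in Col-0 under NaCl (log2 fold change 1.47 ± 0.26 SE, adjusted p = 0.0119). ABI2, HAI3, ABI1, HAI2 and HAB2 passed in the same direction with log2 fold changes between 0.71 and 1.43. Of the SnRK2 kinases, OST1, the kinase of guard cell closure, was at a log2 fold change of 1.08 and SNRK2.7 at a log2 fold change of 1.46 (36.4 RPKM in lsm1a lsm1b and 53.5 in Col-0 under PEG, against 16.1 in lsm1a lsm1b and 16.3 in Col-0 under NaCl; adjusted p = 0.00731). Of the bZIP factors that the kinases activate, ABF4 was higher by 1.43, ABI5 by 1.27 and ABF2 by 0.94 on the log2 scale. ABF1 and ABF3 did not pass. The remaining higher members, AFP3 (log2 fold change 1.42) and AFP1 (log2 fold change 1.28), encode proteins that bind ABI5 and restrain it. In each of the 15 higher genes, named because they passed the test, both PEG libraries lay above both NaCl libraries.

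Dehydration response genes, many of which are ABA targets, were higher in PEG in 21 cases, among them RAB18, the gene with the highest RPKM in any of the 4 libraries. Of 42 tested, 4 were lower and 17 did not pass (median 0.66). Together they took 5.93% of counts in lsm1a lsm1b and 6.31% in Col-0 under PEG, against 3.25% in lsm1a lsm1b and 1.95% in Col-0 under NaCl. RAB18 (AT5G66400, TAIR10 chromosome 5, 26518297 to 26519242, minus strand), a dehydrin, reached 12729 RPKM in lsm1a lsm1b and 14122 in Col-0 under PEG, against 2685 in lsm1a lsm1b and 2099.8 in Col-0 under NaCl (log2 fold change 2.51 ± 0.31 SE, adjusted p = 0.00417). LEA7 (AT1G52690), a late embryogenesis abundant (LEA) protein, reached 8967 RPKM in lsm1a lsm1b and 6446 in Col-0 under PEG, against 2097 in lsm1a lsm1b and 454 in Col-0 under NaCl (log2 fold change 2.97 ± 0.48 SE, adjusted p = 0.00876). RD29B (AT5G52300), the ABA marker gene with repeated ABRE sites in its promoter, was at 1774 RPKM in lsm1a lsm1b and 2706 in Col-0 under PEG, against 485 in lsm1a lsm1b and 287 in Col-0 under NaCl (log2 fold change 2.56 ± 0.40 SE, adjusted p = 0.00792). In all 3 genes the PEG libraries lay above the NaCl libraries without overlap, and the Col-0 library was the lowest of the 4 under NaCl. XERO1, another dehydrin, was at a log2 fold change of 2.32, and the homeodomain factors HB12 and HB7 at log2 fold changes of 2.16 and 1.39. RD29A and COR15A, chosen after their values were seen, are in the list as well: log2 fold changes of 0.30 (adjusted p = 0.604) and 0.12 (adjusted p = 0.841). The 4 lower members included 2 U-box ubiquitin ligases that restrain the drought response, PUB23 (3.25 RPKM in lsm1a lsm1b and 4.24 in Col-0 under PEG, against 14.5 in lsm1a lsm1b and 21.7 in Col-0 under NaCl; log2 fold change -2.25 ± 0.20 SE, adjusted p = 0.00212) and PUB22 (log2 fold change -1.07), together with MYB44 (log2 fold change -0.88) and the sugar transporter gene ERD6 (log2 fold change -1.35).

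Seed markers had a positive median as well, and their part in the dehydration result was not tested. Of 12 tested, 2 passed as higher and 0 as lower, with a median of 2.13 that came mainly from Col-0: the median log2 ratio of PEG over NaCl was 0.49 in lsm1a lsm1b and 5.97 in Col-0. CRA1, a cruciferin storage protein, had 6353 counts in lsm1a lsm1b and 1984 in Col-0 under PEG, against 5547 in lsm1a lsm1b and 526 in Col-0 under NaCl (log2 fold change 1.2 ± 0.34 SE, adjusted p = 0.0466). The oleosin OLEO2, a protein of oil bodies, also passed at a log2 fold change of 1.06. SESA5 and OLEO4 had 0 counts in Col-0 under NaCl and did not pass. SESA3 had the highest log2 fold change of all genes tested and did not pass (log2 fold change 4.11 ± 1.46 SE, adjusted p = 0.0853). The summed level of the seed markers was thus lowest in Col-0 under NaCl, which was also the lowest library for RAB18, LEA7 and RD29B. For the dehydration list the median log2 ratio of PEG over NaCl was 0.59 in lsm1a lsm1b and 0.88 in Col-0.

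**Figure D2:**
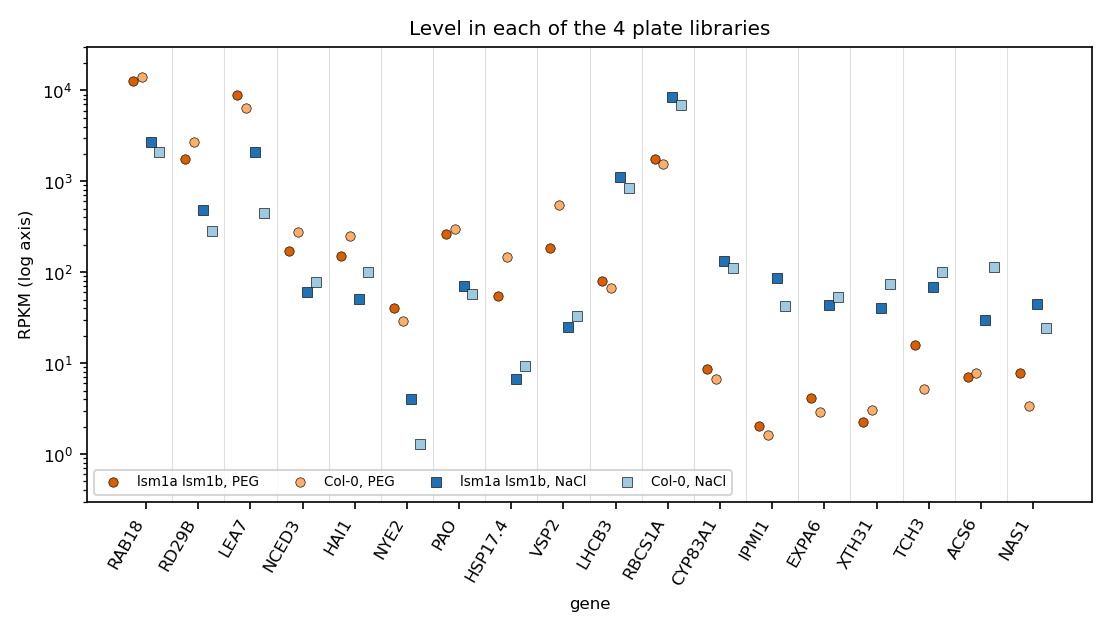
RPKM on a log axis for 18 genes in the 4 libraries, with PEG as orange circles left of NaCl as blue squares and the darker shade for lsm1a lsm1b. The 18 genes were picked among the called genes, and in each the PEG pair and the NaCl pair do not overlap. RAB18 lies between 12729 and 14122 RPKM under PEG and between 2099.8 and 2685 under NaCl.

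A pair of LEA genes outside that list were among the 15 called genes with the highest log2 fold changes. AT3G17520 had 1775 RPKM in lsm1a lsm1b and 2782 in Col-0 under PEG, against 354 in lsm1a lsm1b and 171 in Col-0 under NaCl (log2 fold change 3.19 ± 0.46 SE, adjusted p = 0.00639). AT2G42560 had 162 RPKM in lsm1a lsm1b and 239 in Col-0 under PEG, against 40.2 in lsm1a lsm1b and 10.9 in Col-0 under NaCl (log2 fold change 3.23 ± 0.60 SE, adjusted p = 0.0129). The windows of 250 bases before the annotated start of these genes and of NYE2, a chlorophyll breakdown gene, are printed with that of IPMI1, one of the lowest genes. They are examples that hold the core of the ABA-responsive element (ABRE) and do not show how common it was. The sequences are from RefSeq, build TAIR10.1, 5′ to 3′ on the strand of the gene, and capitals mark the core ACGTG on either strand (CACGT on the opposite one). The G-box CACGTG holds the core on both strands and counts as 2 matches. The windows are chr2:17716913-17717162, minus strand for AT2G42560, chr3:6000448-6000697, minus strand for AT3G17520, chr4:7155900-7156149, plus strand for NYE2 and chr3:21798304-21798553, minus strand for IPMI1.
AT2G42560: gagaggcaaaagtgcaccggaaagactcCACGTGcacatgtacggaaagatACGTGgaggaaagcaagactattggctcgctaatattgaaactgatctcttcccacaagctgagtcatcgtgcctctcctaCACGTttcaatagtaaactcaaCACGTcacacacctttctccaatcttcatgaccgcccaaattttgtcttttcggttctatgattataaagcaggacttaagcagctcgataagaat
AT3G17520: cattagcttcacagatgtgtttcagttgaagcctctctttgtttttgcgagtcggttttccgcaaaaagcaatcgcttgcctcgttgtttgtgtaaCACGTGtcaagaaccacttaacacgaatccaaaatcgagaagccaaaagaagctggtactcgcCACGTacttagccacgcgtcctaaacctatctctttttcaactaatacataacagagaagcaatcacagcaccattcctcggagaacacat
NYE2: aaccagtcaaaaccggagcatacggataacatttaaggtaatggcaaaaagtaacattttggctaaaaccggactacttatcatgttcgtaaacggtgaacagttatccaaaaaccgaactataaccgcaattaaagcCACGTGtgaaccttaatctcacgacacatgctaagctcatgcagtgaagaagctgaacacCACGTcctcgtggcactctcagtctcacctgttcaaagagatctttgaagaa
IPMI1: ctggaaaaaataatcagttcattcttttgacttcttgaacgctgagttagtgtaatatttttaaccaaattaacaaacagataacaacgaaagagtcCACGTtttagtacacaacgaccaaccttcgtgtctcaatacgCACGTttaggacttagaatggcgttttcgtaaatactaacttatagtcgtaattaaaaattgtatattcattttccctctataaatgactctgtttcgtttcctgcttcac

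AT2G42560 held 5 core matches, AT3G17520 and NYE2 held 3 each, and IPMI1, which was lower in PEG, held 2. The largest number was 5 among the 15 highest genes and 2 among the 15 lowest. Of the 15 highest genes 9 held at least 1 core, and of the 15 lowest genes 4 did. Over all called genes with a window, 32.4% of the 1826 higher and 23.0% of the 2632 lower held the core, beside 24.2% of all 18175 windows of genes tested. Windows with at least 2 matches made up 17.7% of the higher, 9.54% of the lower and 10.4% of all genes. The G-box was found in 13.2% of the higher and 7.26% of the lower genes, beside 7.86% of all. For the drought-responsive element core CCGAC the shares were 15.9% of the higher, 12.3% of the lower and 13.2% of all genes, and for the W-box TTGACC, the site of WRKY factors, 12.1%, 13.0% and 12% in the same order. The heat shock element of alternating GAA and TTC units was present in 1.2% of the higher and 0.418% of the lower genes, beside 0.407% of all. The evening element AAAATATCT of clock factors was present in 2.79%, 3.34% and 2.5% of higher, lower and all genes. For the site II element GGCCCA, common in promoters of growth genes, the shares were 17.3%, 12.4% and 16.9%, and for the low-oxygen element AAACCA 27.6%, 27.9% and 27.8%. All motifs were searched on both strands, a match is a description of these letters only, and no test was made.

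**Figure D3:**
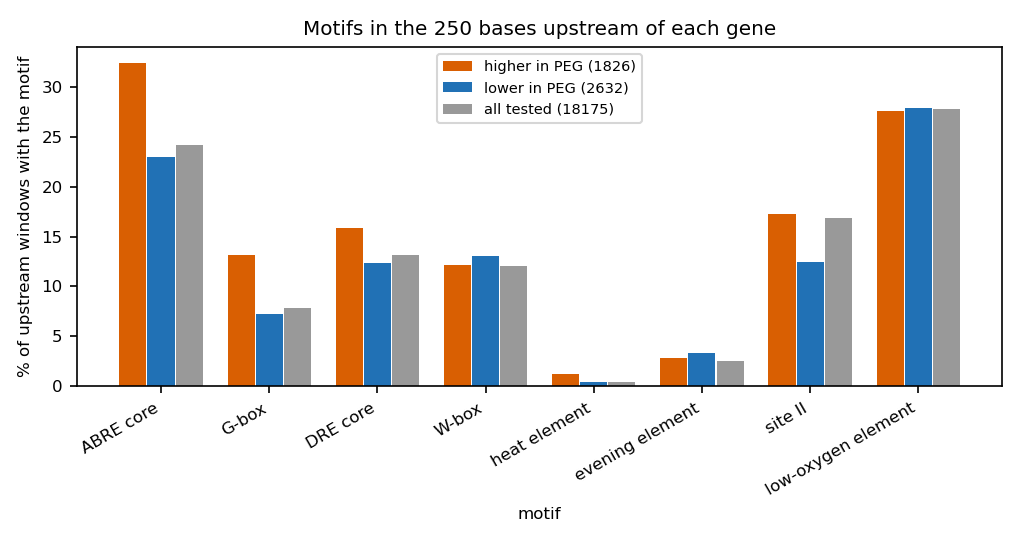
Percent of upstream windows of 250 bases that hold each of 8 motifs, for 1826 genes higher in PEG (orange, left), 2632 genes lower in PEG (blue, middle) and all 18175 windows of genes tested (grey, right). The ABRE core was found in 32.4% of the higher, 23.0% of the lower and 24.2% of all windows, and the shares for the low-oxygen element lay between 27.6% and 27.9%.

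Genes of protective solutes were found on both sides. Of 16 proline and raffinose genes tested, 5 were higher and 4 lower (median 0.07), or 31.2% and 25% beside 10.0% and 14.4% over all genes tested. RS2 (AT3G57520), of the raffinose synthase family, had 235 RPKM in lsm1a lsm1b and 529 in Col-0 under PEG, against 50.4 in lsm1a lsm1b and 119 in Col-0 under NaCl (log2 fold change 2.2 ± 0.20 SE, adjusted p = 0.00218). P5CS2 and P5CS1, the enzymes of the first step of proline synthesis, were at log2 fold changes of 1.52 and 0.98, and the galactinol synthases GOLS1 and GOLS2 at log2 fold changes of 1.17 and 0.71. The lower members were the proline transporters PROT1, PROT2 and PROT3, at log2 fold changes of -1.04, -0.65 and -1.81, and MIOX2, a myo-inositol oxygenase (2.27 RPKM in lsm1a lsm1b and 0.998 in Col-0 under PEG, against 5.33 in lsm1a lsm1b and 12.1 in Col-0 under NaCl; log2 fold change -2.35 ± 0.53 SE, adjusted p = 0.0225). The stresses did not overlap in RS2, P5CS2 and MIOX2, whereas PROT3 and GOLS2 overlapped because the lsm1a lsm1b level was above that of Col-0 in both stresses.

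Sugar genes were divided in the same way, with 9 higher (34.6%) and 8 lower (30.8%) of 26 tested (median -0.07). SWEET15, a sucrose exporter also known as SAG29, had 544 RPKM in lsm1a lsm1b and 734 in Col-0 under PEG, against 161 in lsm1a lsm1b and 95.1 in Col-0 under NaCl (log2 fold change 2.36 ± 0.34 SE, adjusted p = 0.0063). SWEET4 was at 189.8 RPKM in lsm1a lsm1b and 397 in Col-0 under PEG, against 59.2 in lsm1a lsm1b and 58.4 in Col-0 under NaCl (log2 fold change 2.23 ± 0.30 SE, adjusted p = 0.00547). The sucrose synthase SUS3 was at a log2 fold change of 1.93. TPPA, a trehalose phosphate phosphatase, was lower at 1.4 RPKM in lsm1a lsm1b and 1.23 in Col-0 under PEG, against 4.83 in lsm1a lsm1b and 8.24 in Col-0 under NaCl (log2 fold change -2.26 ± 0.32 SE, adjusted p = 0.00617). TPS5 was at a log2 fold change of -1.87. Starch genes were found on both sides. BAM3 (AT4G17090), the plastid beta-amylase of nightly starch breakdown, was the lowest member with 20.23 RPKM in lsm1a lsm1b and 29.1 in Col-0 under PEG, against 173 in lsm1a lsm1b and 301 in Col-0 under NaCl (log2 fold change -3.22 ± 0.19 SE, adjusted p = 0.00101). SEX1 of the same route was at a log2 fold change of -0.94. BAM1, a beta-amylase of daytime starch breakdown in guard cells and under stress, was higher at a log2 fold change of 1.37. None of these sugar and starch genes overlapped between the stresses.

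In the sodium and potassium transport list 4 of 31 were higher, 6 lower and 21 did not pass (median -0.12). The shares of 12.9% higher and 19.4% lower stand beside 10.0% and 14.4% over all genes tested. CBL10 (AT4G33000), the calcium sensor that activates the SOS2 kinase in shoots under salt, had 1.88 RPKM in lsm1a lsm1b and 1.27 in Col-0 under PEG, against 7.15 in lsm1a lsm1b and 7.82 in Col-0 under NaCl (log2 fold change -2.25 ± 0.32 SE, adjusted p = 0.00634). Both PEG libraries lay below both NaCl libraries. The sodium exporter gene SOS1, chosen after its value was seen, was at a log2 fold change of 0.56 (adjusted p = 0.0781), and the vacuolar exchanger NHX1 at a log2 fold change of 0.34 (adjusted p = 0.188). SLAH3, an anion channel, was lower in PEG (log2 fold change -1.46), as were the proton pump gene AHA2 (log2 fold change -0.85) and the calcium exchanger CAX1 (log2 fold change -1.0). KUP6, a potassium transporter (58.2 RPKM in lsm1a lsm1b and 88.3 in Col-0 under PEG, against 26.1 in lsm1a lsm1b and 23.9 in Col-0 under NaCl; log2 fold change 1.53 ± 0.24 SE, adjusted p = 0.0079), and the nitrate exchanger CLCA (log2 fold change 1.1) were higher.

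Aquaporins were lower in PEG or did not pass, with 0 higher and 9 lower of 21 tested (median -0.50). TIP1;2 (AT3G26520), a water channel of the vacuolar membrane, had 429 RPKM in lsm1a lsm1b and 125 in Col-0 under PEG, against 1335 in lsm1a lsm1b and 400.3 in Col-0 under NaCl (log2 fold change -1.65 ± 0.20 SE, adjusted p = 0.00399). PIP2;8 was at 5.26 RPKM in lsm1a lsm1b and 8.11 in Col-0 under PEG, against 19.4 in lsm1a lsm1b and 19.4 in Col-0 under NaCl (log2 fold change -1.55 ± 0.25 SE, adjusted p = 0.00877). PIP2;3, which has a near-identical neighbour in PIP2;2, was at a log2 fold change of -1.54 and TIP2;2 at a log2 fold change of -1.45. For TIP1;2, PIP2;3 and TIP2;2 the level was higher in lsm1a lsm1b than in Col-0 in both stresses, and lsm1a lsm1b under PEG lay above Col-0 under NaCl. The PEG and NaCl groups of these genes therefore overlap, and the difference appears only within each genotype.

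Nuclear photosynthesis genes had the highest share of called members of any pathway list, all of them lower in PEG. Of 43 tested, 38 were lower and 0 higher in PEG, with a median of -1.23. The list took 2.42% of counts in lsm1a lsm1b and 2.07% in Col-0 under PEG, against 5.4% in lsm1a lsm1b and 5.77% in Col-0 under NaCl. LHCB3 (AT5G54270, TAIR10 chromosome 5, 22038273 to 22039568, plus strand), an antenna protein of photosystem II, had 79.9 RPKM in lsm1a lsm1b and 66.7 in Col-0 under PEG, against 1118 in lsm1a lsm1b and 846 in Col-0 under NaCl (log2 fold change -3.73 ± 0.22 SE, adjusted p = 0.00101). LHCB2.3 was at 7.09 RPKM in lsm1a lsm1b and 4.58 in Col-0 under PEG, against 50.7 in lsm1a lsm1b and 35.7 in Col-0 under NaCl (log2 fold change -2.89 ± 0.20 SE, adjusted p = 0.00127). LHCB1.1 and LHCB1.2 were at log2 fold changes of -2.50 and -2.54, but the LHCB1 genes are near-identical copies between which reads may have been split. LHCB6 and the plastocyanin PETE1 were at log2 fold changes of -2.48 and -2.25. Photosystem I subunit genes that passed had log2 fold changes from -2.29 for PSAD-2 to -0.70 for PSAE-1. In every gene named here both PEG libraries lay below both NaCl libraries.

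The Calvin cycle followed, with 16 of 20 genes lower and 1 higher (median -1.48). FBA1 (AT2G21330), a plastid aldolase, had 25.3 RPKM in lsm1a lsm1b and 29.8 in Col-0 under PEG, against 165 in lsm1a lsm1b and 234 in Col-0 under NaCl (log2 fold change -2.83 ± 0.18 SE, adjusted p = 0.00115). GAPA-2 was at a log2 fold change of -2.59. RBCS1A, the most abundant small subunit gene of Rubisco, was at 1749.6 RPKM in lsm1a lsm1b and 1545 in Col-0 under PEG, against 8370.3 in lsm1a lsm1b and 6964 in Col-0 under NaCl (log2 fold change -2.21 ± 0.26 SE, adjusted p = 0.00399). RBCS2B was at a log2 fold change of -2.21. The Rubisco small subunit genes share long stretches of sequence, so their split is uncertain. The higher member was TKL2, a transketolase (log2 fold change 0.66). In FBA1, GAPA-2, RBCS1A and RBCS2B both PEG libraries were below both NaCl libraries. Chloroplast-encoded genes did not go the same way: none of 86 passed by edgeR and their median was 0.43, while they took 2.05% of counts in lsm1a lsm1b and 3.18% in Col-0 under PEG, against 1.90% in lsm1a lsm1b and 1.62% in Col-0 under NaCl. At an unadjusted p under 0.05, 9 of these were higher and 0 lower, and DESeq2 called 1. The positive median came from Col-0: the median log2 ratio of PEG over NaCl was -0.005 in lsm1a lsm1b and 0.82 in Col-0.

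Several genes of chlorophyll breakdown and senescence were higher in PEG. Of 31 genes of senescence and sugar starvation tested, 13 were higher and 3 lower, and 15 did not pass (median 0.65). NYE2 (AT4G11910, TAIR10 chromosome 4, 7156252 to 7158042, plus strand), a STAY-GREEN protein that takes magnesium from chlorophyll, had 40.4 RPKM in lsm1a lsm1b and 29.3 in Col-0 under PEG, against 4.08 in lsm1a lsm1b and 1.28 in Col-0 under NaCl (log2 fold change 3.84 ± 0.34 SE, adjusted p = 0.0021). PAO, the oxygenase that opens the chlorophyll ring, was at 265 RPKM in lsm1a lsm1b and 297 in Col-0 under PEG, against 71.0 in lsm1a lsm1b and 57.1 in Col-0 under NaCl (log2 fold change 2.15 ± 0.22 SE, adjusted p = 0.00285). NYE1 and the pheophytinase PPH of the same route were at log2 fold changes of 1.65 and 1.25. The senescence factors ORE1 and NAP were at log2 fold changes of 1.55 and 1.23, and SAG21 at a log2 fold change of 1.87. BCAT2 and IVD, enzymes of branched-chain amino acid metabolism, were at log2 fold changes of 1.78 and 1.2. WRKY53, a regulator of early leaf senescence, was on the opposite side with 2.6 RPKM in lsm1a lsm1b and 1.38 in Col-0 under PEG, against 11.3 in lsm1a lsm1b and 17.1 in Col-0 under NaCl (log2 fold change -2.83 ± 0.36 SE, adjusted p = 0.00473), as were SEN4 (log2 fold change -1.43) and DIN6 (log2 fold change -0.95). The stresses did not overlap in any gene of this group named here.

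**Figure D4:**
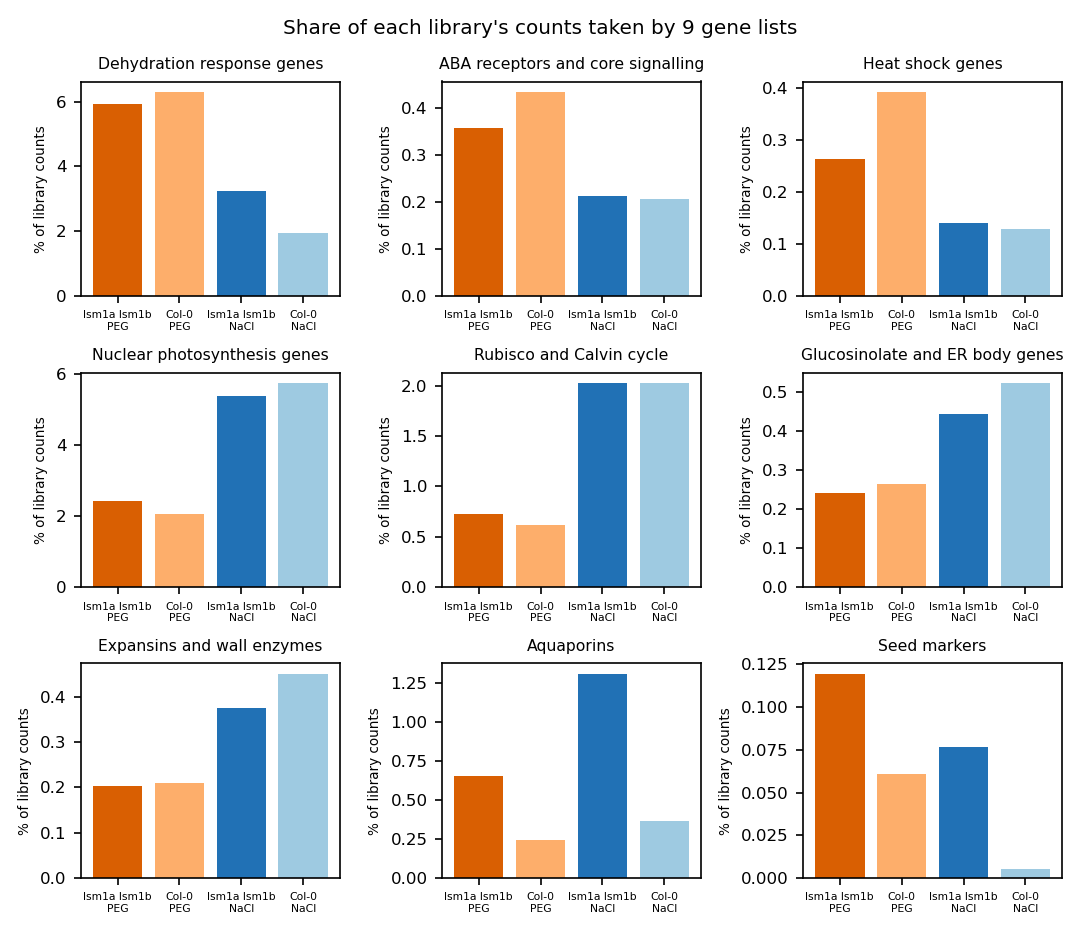
Percent of each library's counts taken by 9 gene lists, with the PEG libraries left of the NaCl libraries and all axes starting at 0. Dehydration response genes took 5.93% and 6.31% of counts under PEG, against 3.25% and 1.95% under NaCl, and nuclear photosynthesis genes 2.42% and 2.07% under PEG, against 5.4% and 5.77% under NaCl (lsm1a lsm1b before Col-0 in each pair).

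Of 27 heat shock genes tested, 13 were higher in PEG, 0 were lower and 14 did not pass (median 0.82). HSP17.4 (AT3G46230, TAIR10 chromosome 3, 16984118 to 16984841, minus strand), a cytosolic small heat shock protein, had 54.7 RPKM in lsm1a lsm1b and 146 in Col-0 under PEG, against 6.71 in lsm1a lsm1b and 9.31 in Col-0 under NaCl (log2 fold change 3.52 ± 0.29 SE, adjusted p = 0.00178). HSP17.6A was at 21.7 RPKM in lsm1a lsm1b and 67.0 in Col-0 under PEG, against 6.65 in lsm1a lsm1b and 4.71 in Col-0 under NaCl (log2 fold change 2.77 ± 0.51 SE, adjusted p = 0.0129). HSP17.6C was at a log2 fold change of 2.38 and HSP70B at a log2 fold change of 2.24. The heat shock factor HSFA6A was at 152 RPKM in lsm1a lsm1b and 229 in Col-0 under PEG, against 35.1 in lsm1a lsm1b and 47.2 in Col-0 under NaCl (log2 fold change 2.2 ± 0.18 SE, adjusted p = 0.00165). Col-0 under PEG was the highest library for HSP17.4, HSP17.6A and HSP70B, and lsm1a lsm1b under PEG was next. In the endoplasmic reticulum (ER) stress list 5 of 25 were higher and 2 lower (median -0.02). These are 20% and 8%, beside 10.0% higher and 14.4% lower over all genes tested. The factors NAC089 (log2 fold change 1.63) and BZIP60 (log2 fold change 1.45) were higher with DERLIN-1 (log2 fold change 1.16) and PDIL1-2 (log2 fold change 0.94). The chaperones CNX1 (log2 fold change -0.72) and CRT1 (AT1G56340, log2 fold change -0.65) were lower.

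Glucosinolate genes showed the lowest list median, -2.04, with 21 of 24 lower in PEG and 0 higher. Glucosinolates are sulfur-rich defence compounds of the Brassicaceae, and the aliphatic ones derive from chain-elongated methionine. IPMI1 (AT3G58990, TAIR10 chromosome 3, 21797058 to 21798303, minus strand), an isopropylmalate isomerase subunit, had 2.05 RPKM in lsm1a lsm1b and 1.6 in Col-0 under PEG, against 86.6 in lsm1a lsm1b and 42.8 in Col-0 under NaCl (log2 fold change -5.07 ± 0.26 SE, adjusted p = 0.000951). CYP83A1, the cytochrome P450 that oxidises aliphatic aldoximes, had 8.66 RPKM in lsm1a lsm1b and 6.74 in Col-0 under PEG, against 134 in lsm1a lsm1b and 112 in Col-0 under NaCl (log2 fold change -4.0 ± 0.18 SE, adjusted p = 0.000951). CYP79F1 and BCAT4 of the aliphatic route were at log2 fold changes of -3.86 and -3.72, and their MYB regulators MYB29 and MYB28 at log2 fold changes of -3.24 and -2.24. Genes of the indole route were lower too, such as CYP79B3 (log2 fold change -2.59) and CYP83B1 (log2 fold change -2.04). The myrosinase TGG1, which is also a guard cell marker, was at a log2 fold change of -1.13. In each of IPMI1, CYP83A1, CYP79F1 and BCAT4 both PEG libraries were below both NaCl libraries.

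Most genes of the wall loosening and cell cycle lists, both tied to growth, were lower too. Of 37 expansin and wall enzyme genes, 23 were lower and 2 higher (median -1.57). XTH31 (AT3G44990, TAIR10 chromosome 3, 16446975 to 16448764, minus strand), a xyloglucan endotransglucosylase/hydrolase, had 2.26 RPKM in lsm1a lsm1b and 3.06 in Col-0 under PEG, against 40.7 in lsm1a lsm1b and 73.5 in Col-0 under NaCl (log2 fold change -4.37 ± 0.21 SE, adjusted p = 0.000951). XTH6 was at 1.14 RPKM in lsm1a lsm1b and 0.393 in Col-0 under PEG, against 5.74 in lsm1a lsm1b and 33.6 in Col-0 under NaCl (log2 fold change -4.25 ± 0.82 SE, adjusted p = 0.0147). PME41 was at a log2 fold change of -3.81 and EXPA6 at a log2 fold change of -3.78. XTH25 and XTH30 were the higher members, at log2 fold changes of 2.23 and 0.75. Of these 6 genes only XTH30 overlapped between the stresses. Among cell cycle genes 20 of 34 were lower and 0 higher (median -0.99). These were at low levels: the cyclin CYCA1;1 had 23 counts in lsm1a lsm1b and 57 in Col-0 under PEG, against 177 in lsm1a lsm1b and 179 in Col-0 under NaCl (log2 fold change -2.09 ± 0.35 SE, adjusted p = 0.00997). CYCB1;2 was at a log2 fold change of -2.0, the kinesin HIK at a log2 fold change of -1.98 and CYCA2;3 at a log2 fold change of -1.81. Nuclear ribosomal protein genes, without those whose product name points to an organelle, had a median of -0.27, with 53 of 303 lower and 4 higher. They were picked by product name, so genes for organelle ribosomes may remain among them. The 17.5% lower is near the 14.4% over all genes tested.

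The hormone lists of growth are set beside the shares over all genes tested, 10.0% higher and 14.4% lower. In the auxin list 1 of 26 was higher and 9 (34.6%) were lower (median -0.24), among them CYP79B2 (log2 fold change -2.35), which serves both auxin and indole glucosinolate synthesis, GH3.3 (log2 fold change -2.30), which conjugates auxin, and the auxin exporter PIN7 (14.9 RPKM in lsm1a lsm1b and 8.09 in Col-0 under PEG, against 50.0 in lsm1a lsm1b and 44.3 in Col-0 under NaCl; log2 fold change -2.09 ± 0.21 SE, adjusted p = 0.00247). In the gibberellin, cytokinin and brassinosteroid list 3 of 28 were higher and 6 lower (median -0.32), or 10.7% and 21.4%. EXO, GASA14 and the bHLH gene BEE2, all growth-related, were at log2 fold changes of -3.30, -3.18 and -1.91, and GA3OX1, which makes active gibberellin, was higher (2.52 RPKM in lsm1a lsm1b and 11.8 in Col-0 under PEG, against 0.739 in lsm1a lsm1b and 2.37 in Col-0 under NaCl; log2 fold change 2.1 ± 0.32 SE, adjusted p = 0.00724). In the wax, cutin and suberin list 2 of 28 were higher and 10 lower (median -0.29). GPAT8 and CYP86A4, enzymes of cutin synthesis, were at log2 fold changes of -2.85 and -2.38, the wax synthase WSD1 at a log2 fold change of -1.68 and the acyl-CoA synthetase LACS1 at a log2 fold change of -1.38. Without the NaCl library labelled lsm1a lsm1b, the fit that also held the cold libraries put WSD1 at a log2 fold change of 0.0351.

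**Figure D5:**
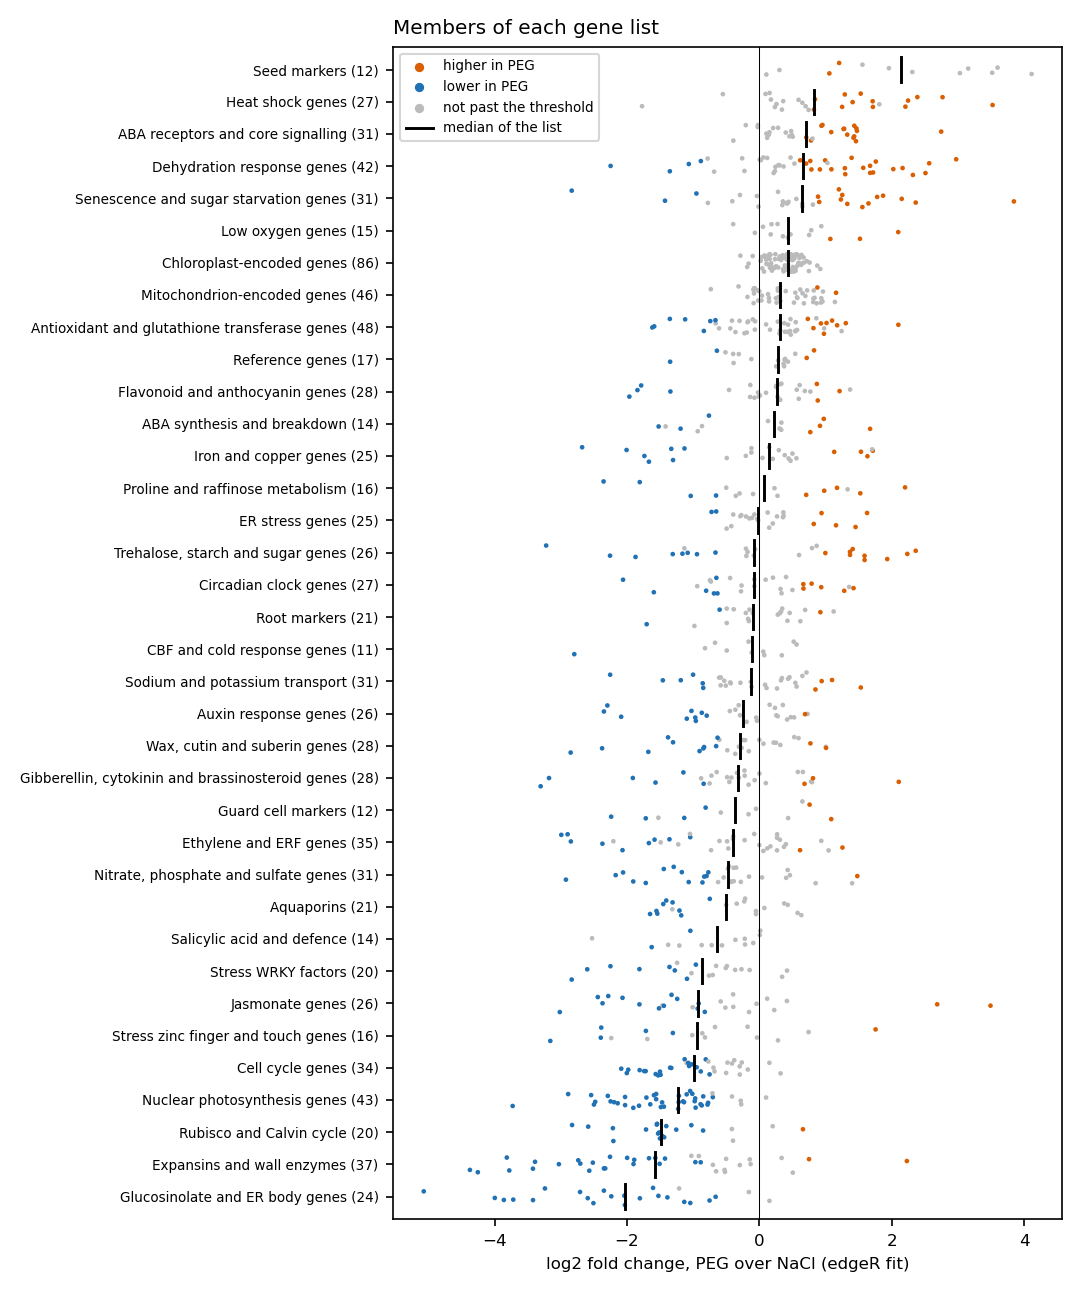
Log2 fold change of PEG over NaCl for the members of each list, 1 row per list with the number of genes tested in brackets, ordered by the list median (black bar); orange members were higher, blue lower and grey did not pass the edgeR test. The medians run from -2.04 for glucosinolate and ER body genes to 2.13 for seed markers.

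Most called genes of the jasmonate pathway, the ERF and WRKY families and touch responses were lower in PEG. Of 26 jasmonate genes 13 were lower and 2 higher (median -0.92). Synthesis genes were on the lower side: the lipoxygenases LOX4 (1.4 RPKM in lsm1a lsm1b and 0.432 in Col-0 under PEG, against 4.25 in lsm1a lsm1b and 11.1 in Col-0 under NaCl; log2 fold change -3.01 ± 0.65 SE, adjusted p = 0.0202) and LOX3 (log2 fold change -2.37), and OPR3 (log2 fold change -2.28), which reduces the precursor. The repressor gene JAZ6 was at a log2 fold change of -2.44 and the factor MYC2 at a log2 fold change of -1.44. VSP2 and VSP1, storage proteins of leaves that jasmonate induces, were the 2 higher members: VSP2 (AT5G24770, TAIR10 chromosome 5, 8500476 to 8502224, minus strand) had 184 RPKM in lsm1a lsm1b and 554 in Col-0 under PEG, against 25.2 in lsm1a lsm1b and 32.6 in Col-0 under NaCl (log2 fold change 3.49 ± 0.35 SE, adjusted p = 0.00249). VSP1 was at a log2 fold change of 2.68. Col-0 under PEG was the highest library for both VSP genes, and neither overlapped between the stresses.

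Ethylene and ERF genes counted 2 higher and 9 lower of 35 (median -0.40). ACS6, an enzyme of ethylene precursor synthesis, had 7.08 RPKM in lsm1a lsm1b and 7.70 in Col-0 under PEG, against 30.2 in lsm1a lsm1b and 114 in Col-0 under NaCl (log2 fold change -2.99 ± 0.40 SE, adjusted p = 0.00528). The ERF factors RRTF1, ERF2 and ERF6 were at log2 fold changes of -2.90, -2.85 and -2.37. Touch-inducible TCH3, a calmodulin-like protein, was at 15.7 RPKM in lsm1a lsm1b and 5.24 in Col-0 under PEG, against 69.3 in lsm1a lsm1b and 101 in Col-0 under NaCl (log2 fold change -3.16 ± 0.46 SE, adjusted p = 0.00669). MLO12 was at a log2 fold change of -2.40, TCH2 at a log2 fold change of -2.39 and, on the higher side, the zinc finger factor ZAT6 at a log2 fold change of 1.75. That list held 1 higher and 5 lower of 16 (median -0.94). Of 20 stress WRKY factors 0 were higher and 8 lower (median -0.86): WRKY53, WRKY22 (log2 fold change -2.60), WRKY40 (log2 fold change -2.25) and WRKY48 (log2 fold change -1.81) led. In the salicylic acid and defence list 2 of 14 passed, both lower, or 14.3% beside 14.4% lower over all genes tested. They were PR5 (log2 fold change -1.63) and the exporter EDS5 (log2 fold change -1.04), and PR1 and PR2 were listed in neither stress. EDS5 was at a log2 fold change of 0.0238 without Col-0 under NaCl in the fit that also held the cold libraries. RAV1 (2.53 RPKM in lsm1a lsm1b and 2.07 in Col-0 under PEG, against 9.20 in lsm1a lsm1b and 27.5 in Col-0 under NaCl; log2 fold change -2.80 ± 0.42 SE, adjusted p = 0.00727) was the only one of 11 CBF and cold response genes tested to pass, or 9.1%. The other 4 of the 15 list members, CBF1, CBF2, CBF3 and GOLS3, were listed in NaCl only and could not be tested. Among the called genes named from these lists only WRKY48 and PR5 overlapped between the stresses, both with higher levels in lsm1a lsm1b than in Col-0.

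Oxidative stress genes counted 9 higher and 7 lower of 48 (median 0.31), which is 18.8% and 14.6% beside 10.0% higher and 14.4% lower of all genes tested. The ascorbate peroxidase APX2 was higher (2.34 RPKM in lsm1a lsm1b and 5.90 in Col-0 under PEG, against 0.747 in lsm1a lsm1b and 1.07 in Col-0 under NaCl; log2 fold change 2.1 ± 0.40 SE, adjusted p = 0.0142). The NADPH oxidase RBOHD, the kinase OXI1 and the superoxide dismutase FSD1 were lower (log2 fold changes -1.62, -1.59 and -1.35). The low-oxygen list had 3 higher (20%) and 0 lower of 15 (median 0.43). The alcohol dehydrogenase ADH1 was at 394 RPKM in lsm1a lsm1b and 434 in Col-0 under PEG, against 149 in lsm1a lsm1b and 63.7 in Col-0 under NaCl (log2 fold change 2.1 ± 0.36 SE, adjusted p = 0.0104). LBD41 was at a log2 fold change of 1.52 and PDC1 at a log2 fold change of 1.07. In the flavonoid list 3 were higher and 4 lower of 28 (median 0.26), shares near those over all genes. The median log2 ratio of PEG over NaCl in that list was -0.25 in lsm1a lsm1b and 0.66 in Col-0. The activators PAP1 (log2 fold change -1.96), EGL3 (log2 fold change -1.84) and MYB111 (log2 fold change -1.79) were lower, and the enzyme F3H (log2 fold change 1.21) higher.

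Nutrient genes were found on both sides. Iron and copper genes counted 4 higher (16%) and 7 lower (28%) of 25 (median 0.15), beside 10.0% higher and 14.4% lower over all genes tested. NAS1, a nicotianamine synthase, had 7.78 RPKM in lsm1a lsm1b and 3.40 in Col-0 under PEG, against 45.1 in lsm1a lsm1b and 24.5 in Col-0 under NaCl (log2 fold change -2.68 ± 0.20 SE, adjusted p = 0.00131). NAS3 and the peptide gene IMA3 were at log2 fold changes of -2.01 and -1.74. The iron-deficiency factor BHLH101 was higher (log2 fold change 1.71). Of 31 nitrate, phosphate and sulfate genes 1 (3.2%) was higher and 13 (41.9%) were lower (median -0.48). The nitrate transporter NRT2.1 was at 0.408 RPKM in lsm1a lsm1b and 1.62 in Col-0 under PEG, against 8.25 in lsm1a lsm1b and 6.18 in Col-0 under NaCl (log2 fold change -2.92 ± 0.55 SE, adjusted p = 0.0138). APR1, which reduces activated sulfate, SDI1 and SULTR2;1 were lower as well (log2 fold changes -2.17, -2.06 and -1.91). Clock genes counted 6 higher (22.2%) and 6 lower (22.2%) of 27 (median -0.08). RVE2 (log2 fold change 1.42) and RVE1 (log2 fold change 1.28) were higher and CDF1 (log2 fold change -2.06) and PIF5 (log2 fold change -1.59) lower.

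Marker and reference lists were read beside these results. Over all genes tested 10.0% were higher and 14.4% lower. Guard cell markers had 2 higher (16.7%) and 4 lower (33.3%) of 12 (median -0.37). They summed to 347 RPKM in lsm1a lsm1b and 389 in Col-0 under PEG, against 501 in lsm1a lsm1b and 796 in Col-0 under NaCl. MYB60 was at a log2 fold change of -2.24, SPCH, which starts the stomatal lineage, at a log2 fold change of -1.72, and OST1 and the anion channel ALMT12 (log2 fold change 0.76) were higher. Root markers had 1 higher (4.8%) and 2 lower (9.5%) of 21 (median -0.10), shares below those over all genes tested. WOX5 was at a log2 fold change of -1.70 and the peroxidase PER3 at a log2 fold change of 0.92. Of the 18 matched flower and meristem markers, 13 were listed in neither stress. Among 17 genes often used as references, ACT8 (log2 fold change 0.82) and UBC21 (log2 fold change 0.71) were higher and the tubulins TUA2 (log2 fold change -1.35) and TUB4 (log2 fold change -0.64) lower, and the list median was 0.28. The shares of 11.8% higher and 11.8% lower are near those over all genes tested. Where edgeR called no member of a list higher (CBF and cold, aquaporin, photosynthesis, salicylic acid, WRKY, glucosinolate and cell cycle genes), 0 or 1 passed at an unadjusted p under 0.05, and DESeq2 and limma-voom called 0. Where edgeR called none lower (ABA core, heat shock, low oxygen and seed genes), 0 passed at an unadjusted p under 0.05 except for 2 heat shock genes, 1 of which DESeq2 called. The part of these cell types in the results was not tested.

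The 15 called genes with the highest log2 fold changes included several metabolic enzymes. CSLG2 (AT4G24000, TAIR10 chromosome 4, 12462030 to 12465625, plus strand), a cellulose synthase-like protein, had the highest log2 fold change among the called genes with 27.0 RPKM in lsm1a lsm1b and 53.7 in Col-0 under PEG, against 2.43 in lsm1a lsm1b and 2.12 in Col-0 under NaCl (log2 fold change 4.07 ± 0.34 SE, adjusted p = 0.00176). AT5G04380, a methyltransferase of the SAM-dependent family, was at 24.9 RPKM in lsm1a lsm1b and 75.8 in Col-0 under PEG, against 4.01 in lsm1a lsm1b and 1.88 in Col-0 under NaCl (log2 fold change 3.92 ± 0.63 SE, adjusted p = 0.0087). CYP76C2, a cytochrome P450, had 59.1 RPKM in lsm1a lsm1b and 106 in Col-0 under PEG, against 8.05 in lsm1a lsm1b and 3.92 in Col-0 under NaCl (log2 fold change 3.79 ± 0.47 SE, adjusted p = 0.00426). The mitochondrial amino acid carrier BAC2 was at 35.7 RPKM in lsm1a lsm1b and 21.6 in Col-0 under PEG, against 3.95 in lsm1a lsm1b and 1.57 in Col-0 under NaCl (log2 fold change 3.46 ± 0.26 SE, adjusted p = 0.00127). AT2G36780, a glycosyltransferase, was at a log2 fold change of 3.34, and AT3G03620, a MATE efflux protein, at a log2 fold change of 3.71. AT5G39520 (log2 fold change 3.59), AT1G09500 (log2 fold change 3.54), AT5G54585 (log2 fold change 3.44) and AT2G35730 (log2 fold change 3.40) complete the group with HSP17.4, VSP2, NYE2 and the 2 LEA genes. In the 4 genes given in full both PEG libraries lay above both NaCl libraries.

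The 15 called genes with the lowest log2 fold changes were led by PER4 (AT1G14540, TAIR10 chromosome 1, 4974067 to 4975705, minus strand), a peroxidase, with 9 counts in lsm1a lsm1b and 37 in Col-0 under PEG, against 600 in lsm1a lsm1b and 1025 in Col-0 under NaCl (log2 fold change -5.12 ± 0.31 SE, adjusted p = 0.00101). GER1 (AT1G72610, TAIR10 chromosome 1, 27339114 to 27340044, minus strand), a germin-like protein of the wall and the most abundant of the group, had 38.2 RPKM in lsm1a lsm1b and 24.9 in Col-0 under PEG, against 619.9 in lsm1a lsm1b and 920.3 in Col-0 under NaCl (log2 fold change -4.60 ± 0.32 SE, adjusted p = 0.00127). AT1G29660, a GDSL lipase, had 2.17 RPKM in lsm1a lsm1b and 1.37 in Col-0 under PEG, against 41.0 in lsm1a lsm1b and 83.1 in Col-0 under NaCl (log2 fold change -5.05 ± 0.39 SE, adjusted p = 0.00142). AT4G34950, of the major facilitator superfamily, had 6.79 RPKM in lsm1a lsm1b and 5.87 in Col-0 under PEG, against 109 in lsm1a lsm1b and 190.3 in Col-0 under NaCl (log2 fold change -4.50 ± 0.28 SE, adjusted p = 0.00101). The beta-expansin EXPB3 was at a log2 fold change of -4.45, the leucine-rich repeat protein AT1G49750 at a log2 fold change of -4.41, the peroxidase AT5G39580 at a log2 fold change of -4.39 and the protease AT5G19110 at a log2 fold change of -4.78. AT4G28780, another GDSL lipase, was at a log2 fold change of -4.27, AT5G07310, of the ERF family, at a log2 fold change of -4.28, DJ1F at a log2 fold change of -4.24 and the calcium-binding AT2G41090 at a log2 fold change of -4.04. XTH31, XTH6 and IPMI1 complete the group, and in PER4, GER1, AT1G29660 and AT4G34950 the 2 stresses did not overlap.

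Some genes were listed in 1 stress only, which was the case for 1023 genes in NaCl and 289 in PEG. Every listed gene had at least 1 RPKM in the higher of its 2 libraries, so a gene that is not listed has no value in that stress and no fold change or test is given. Of the genes listed in NaCl only, 492 had at least 1 RPKM in both libraries, and of those listed in PEG only, 74 did. By the higher RPKM of the 2 libraries, the leading genes of NaCl were CBF1, a DREB1 factor known from cold (5.51 RPKM in lsm1a lsm1b and 54.8 in Col-0), NUDT24 (5.0 RPKM in lsm1a lsm1b and 49.2 in Col-0), AT1G72910, a TIR domain protein (5.47 RPKM in lsm1a lsm1b and 26.7 in Col-0), PHI-1 (4.37 RPKM in lsm1a lsm1b and 25.4 in Col-0), AT1G56060 (23.0 RPKM in lsm1a lsm1b and 15.8 in Col-0) and the jasmonate-inducible factor ORA47 (5.10 RPKM in lsm1a lsm1b and 22.7 in Col-0). CBF2, ZAT11, JAZ5 and JAZ10 were also listed in NaCl only. The leading genes of PEG were the seed storage genes SESA4 (2.82 RPKM in lsm1a lsm1b and 48.4 in Col-0) and CRU2 (1.76 RPKM in lsm1a lsm1b and 22 in Col-0), the plastid chaperone HSP21 (0.295 RPKM in lsm1a lsm1b and 15.7 in Col-0), AT1G18830, a WD40 repeat protein (12.3 RPKM in lsm1a lsm1b and 7.47 in Col-0), AT2G21510, a DNAJ protein (1.34 RPKM in lsm1a lsm1b and 8.57 in Col-0), and AT4G15990 (8.15 RPKM in lsm1a lsm1b and 8.24 in Col-0). The seed genes and HSP21 came mainly from the Col-0 library.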

How the data were processed

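RNA-seq counts per gene, deposited by the authors as whole numbers with gene lengths, were read for the 4 plate libraries. Genome build TAIR10, TopHat2 and DESeq2 are named without versions in the submitters' processing notes, and the counting tool and the strand setting are not given in the sources used here, so overlapping and antisense genes cannot be told apart. Genes were joined by their AGI code. In 270 NaCl lines and 1 PEG line the transcript name contradicts that code. Every listed gene reached 1 RPKM in its higher library, so low genes are missing from the tables.

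From the counts, RPKM and CPM were computed over the listed genes, and the 18385 genes that passed filterByExpr were tested with edgeR 4.0.16 in R 4.3.3 (TMM, quasi-likelihood test, genotype block, threshold 0.05 after Benjamini-Hochberg adjustment). The rule of size used log2 CPM ratios with a prior count of 2, 2-fold and 5 CPM. Alternatives used limma 3.58.1, DESeq2 1.42.0, other scalings, filters, limits and sets of libraries. The procedure was tested on simulated data. Every sample has replicate number 1, so the genotype and not a replicate number pairs the samples. Nothing says how many plants a library holds, so p-values measure only the spread between these libraries, and intervals cover counting error only.

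The comparison and the 39 gene lists, with 1021 names of which 14 matched no single gene, were chosen with earlier results of these data known. RCD1 and RABC2B had been entered in marker lists by mistake and were left out, and 6 symbols shared with other genes were tied to codes after the data were seen. Named were LSM1A and LSM1B, the 15 highest and 15 lowest nuclear protein-coding genes, up to 4 called members per list, the genes that differed in opposite directions in the genotypes, and the 6 highest by RPKM listed in each stress alone. Other named genes were chosen after their values were seen. A member of the lists is not reported here. Upstream windows were read from the RefSeq genome TAIR10.1, since no table of promoters was given, and this was decided after the data were seen.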

Additional observations from a re-analysis of the deposited data

Results flagged for a closer look

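In 4 genes the PEG to NaCl ratio was at least 2-fold in opposite directions in the 2 genotypes. This is 0.0266% of the 15059 genes that passed the limit of 5 CPM, and with 1 library for each genotype and stress the difference was not tested. AT5G24210, of the alpha/beta-hydrolase superfamily, had 143 counts in lsm1a lsm1b and 55 in Col-0 under PEG, against 51 in lsm1a lsm1b and 205 in Col-0 under NaCl. Its log2 ratios were 1.73 in lsm1a lsm1b and -1.82 in Col-0, which differ by 3.55. AT2G41800, annotated as an imidazolonepropionase of the DUF642 family, had 634 counts in lsm1a lsm1b and 781 in Col-0 under PEG, against 1576 in lsm1a lsm1b and 292 in Col-0 under NaCl. The log2 ratios of AT2G41800 were -1.03 in lsm1a lsm1b and 1.45 in Col-0, a difference of -2.48. AT3G46600, a GRAS family transcription factor, had 2021 counts in lsm1a lsm1b and 1644 in Col-0 under PEG, against 1177 in lsm1a lsm1b and 4333 in Col-0 under NaCl. In this gene the log2 ratio was 1.06 in lsm1a lsm1b and -1.36 in Col-0, a difference of 2.42. AT1G18810, a phytochrome kinase substrate-like protein, had 70 counts in lsm1a lsm1b and 356 in Col-0 under PEG, against 184 in lsm1a lsm1b and 169 in Col-0 under NaCl. Here the log2 ratio was -1.09 in lsm1a lsm1b and 1.11 in Col-0, a difference of -2.20. In AT3G46600 and AT5G24210 the Col-0 library under NaCl was the highest of the 4.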

How the results depend on the processing

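The calls depended on the genotype block and on the number of libraries. Against 1840 genes higher and 2648 lower, edgeR called 0 and 14 without the block, 543 and 903 with all 6 libraries, and 0 to 0 in both directions with any 1 plate library left out of the fit with all 6 libraries, where the lone library of a stress is assumed to vary like the others. At an unadjusted p under 0.05 the fits with a library left out held 914 to 1553 higher and 1493 to 2046 lower. The cause was not tested. DESeq2 called 1434 higher and 1996 lower, limma-voom 2029 and 2809, DESeq2 size factors 2024 and 2663, total count scaling 1975 and 2849, no filter 1835 and 2650, a filter of 10 CPM 1594 and 2240 of 12789 genes, and organelle genes left out 2032 and 2807. Of 150 named genes that were called, 145 stayed past the threshold with DESeq2, 71 of 128 with all 6 libraries and 8 without the block. With a library left out the log2 fold change of EDS5 ran from -1.94 to 0.0238, positive without Col-0 under NaCl, and that of WSD1 from -2.81 to 0.0351, positive without lsm1a lsm1b under NaCl. Under the rule of size (439 higher, 1105 lower), limits of 1.5-fold gave 1509 and 2239, limits of 4-fold 49 and 217, and 20 CPM gave 573 lower. The Col-0 libraries alone, an alternative added after the data were seen, gave 1328 higher and 2078 lower. Genes at least 2-fold apart in opposite directions numbered 11 at 1 CPM and 2 at 20 CPM.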

Other observations

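Genes encoded in the mitochondrion were in no comparison of the pathways. Of 46 tested, 2 were higher and 0 lower in PEG by the edgeR test, with 5 higher and 0 lower at an unadjusted p under 0.05. The 4.3% called higher is below the 10.0% over all genes tested, of which 14.4% were lower. DESeq2 called 1 higher and limma-voom 3, and neither called one lower. The median log2 fold change was 0.31. These genes took 0.0347% of counts in lsm1a lsm1b and 0.0317% in Col-0 under PEG, against 0.0292% in lsm1a lsm1b and 0.0174% in Col-0 under NaCl.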
